A study of Homo sapiens with 12 samples.

Results

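Chromosome 19 carries the densest collection of zinc finger genes in the human genome, and 241 genes named ZNF followed by a number lay wholly on it among the 60645 gene names in the count tables. They were chosen by symbol and chromosome alone, with no use of their levels. On the short arm (19p, start below 26 Mb) there were 83, and on the long arm (19q, start above 26 Mb) 158. Most encode proteins with a row of C2H2 zinc fingers, which read DNA, joined to a KRAB box. The KRAB box binds TRIM28, a scaffold that brings the histone methyltransferase SETDB1 and HP1 proteins (CBX1, CBX3 and CBX5) to the bound site, and the best known targets are transposable elements. The genes arose by tandem duplication and stand in clusters, and their own 3′ ends are known sites of the same heterochromatin through ZNF274.

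The study asked what the disordered region IDR1b of ARID1A, the subunit that defines the BAF class of SWI/SNF chromatin remodellers, does in transcription driven by EWS-FLI1, the fusion protein of Ewing sarcoma. Its cells were HEK-293T, a human embryonic kidney line, and every group carried the ARID1A knockout (a line named 12KO; whether it is a single clone is not given in the sources used here). The knockout cells overexpressed ("O/E" in the labels) an empty vector (no ARID1A), ARID1A WT or ARID1A ΔIDR1b, each together with a second empty vector or with EWS-FLI1. The treatment text gives 2 µg of pcDNA-EWS-FLI1 plasmid and 48 h of growth. Each of the 6 groups had 2 polyA RNA-seq libraries (repeats 1 and 2), which gives 12 in all. Nothing says that the repeats came from separate cultures, so p-values measure the spread between these libraries, which may be technical.

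Libraries held between 11702251 and 14445379 counted fragments. ARID1A, the targeted gene, stood at 147 to 164 CPM (a gene's count scaled to a library total common to all libraries) in the 4 no-ARID1A libraries, at 1843 to 2291 CPM in the 4 WT libraries and at 2608 to 2878 CPM in the 4 ΔIDR1b libraries, so reads from the gene were still counted in the knockout. ΔIDR1b libraries exceeded WT ones by 0.44 on the log2 scale with the empty vector (SE 0.09, edgeR adjusted p = 0.00069) and by 0.34 with EWS-FLI1 (SE 0.09, edgeR adjusted p = 0.0097). The FLI1 part of the fusion stood at or below 0.146 CPM in the 6 empty-vector libraries. With the EWS-FLI1 plasmid it reached 1830 and 1688 CPM without ARID1A, 3675 and 3462 CPM with WT, and 1888 and 1906 CPM with ΔIDR1b. Of the HEK-293T genes checked, VIM, KRT8, KRT18 and NEFL were expressed and NEFM was at 0.0747 CPM or less. PTPRC (leukocytes) and PECAM1 (endothelium) stayed at or below 0.224 CPM. HBB, a globin of red cells, had at least 1.02 CPM in both no-ARID1A libraries with EWS-FLI1 and at most 0.151 CPM in the other 10, and ALB, a liver gene, had 0.223 to 1.04 CPM. COL3A1, a fibroblast collagen, was present at 11.1 to 26.3 CPM.

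Sequence is shown first for the promoters, because ETS factors such as FLI1 bind a GGAA core and these genes differ in how often a full ETS site lies at their start. RefSeq promoters (GRCh38.p14, 250 bases before to 50 after the first listed start) were matched by symbol for 210 of the 241 genes. The letters CCGGAAGT, read on both strands so that ACTTCCGG counts too, were found in 40 of the 210 (19.05%). They were in 4.44% of all 27305 promoters of that length and in 7.84% of the 12582 promoters of genes tested for expression. Among promoters of ZNF-number genes on other chromosomes the share was 15.03%. The arms differed: 39 of 137 promoters on 19q held the letters (28.47%) and 1 of 73 on 19p (1.37%). Among other chromosome 19 genes the shares were 4.58% on 19p and 5.63% on 19q. The cluster at the end of the long arm held 24 of these 40 promoters, which is 46.15% of its own 52. Of 43 single matches, 38 began between 100 bases before and 50 after the start, and 33 read ACTTCCGG on the gene's strand. GGAAGGAA, a stretch of the GGAA repeat that EWS-FLI1 is known to bind, was in 3.33% of the genes' promoters and 3.58% of all. TGAGTCA, the AP-1 site, was in 2.38% and 4.92%. It was in 3.08% of the promoters of genes tested and in 2.59% of those of ZNF-number genes on other chromosomes. The first pair of motifs share the letters GGAA and their matches can overlap.

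The following 7 stretches of 48 bases lie upstream of the RefSeq starts of 19q genes. These genes were higher with ΔIDR1b than without ARID1A (empty vector). The stretches show how the same 8 letters recur, in capitals, in genes along 19q whose flanking sequence differs. Only matches that lie upstream of the start together with both flanks were taken. Each is read 5′ to 3′ on the gene's strand.
ZNF568, chr19:36916274-36916321, + strand: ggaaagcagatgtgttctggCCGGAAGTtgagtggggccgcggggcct
ZNF222, chr19:44025300-44025347, + strand: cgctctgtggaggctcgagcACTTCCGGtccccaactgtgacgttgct
ZNF805, chr19:57240574-57240621, + strand: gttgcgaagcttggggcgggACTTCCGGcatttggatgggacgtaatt
ZNF547, chr19:57363403-57363450, + strand: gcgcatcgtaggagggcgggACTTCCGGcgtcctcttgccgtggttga
ZNF256, chr19:57947829-57947876, - strand: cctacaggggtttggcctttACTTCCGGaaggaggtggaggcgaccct
ZNF606, chr19:58002846-58002893, - strand: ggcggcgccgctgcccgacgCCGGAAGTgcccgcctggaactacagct
ZNF274, chr19:58182957-58183004, + strand: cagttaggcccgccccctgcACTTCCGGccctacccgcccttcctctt

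The letters began 38 bases before the start in ZNF568 and ZNF805 and 150 bases before it in ZNF256. The 250 bases upstream of the RefSeq start are shown for 3 further genes that the results below name. ZNF613 had the largest rise with ΔIDR1b (empty vector) among called genes that averaged at least 1 CPM, and ZNF382 and ZNF134 were the only ones called with EWS-FLI1. ZNF134 holds the 8 letters (capitals), beginning 18 bases before its start, while ZNF613 and ZNF382 hold none in this window. The counted exons of ZNF613 and ZNF382 begin further upstream, so their windows lie within the counted gene spans.
ZNF613, chr19:51927222-51927471, + strand: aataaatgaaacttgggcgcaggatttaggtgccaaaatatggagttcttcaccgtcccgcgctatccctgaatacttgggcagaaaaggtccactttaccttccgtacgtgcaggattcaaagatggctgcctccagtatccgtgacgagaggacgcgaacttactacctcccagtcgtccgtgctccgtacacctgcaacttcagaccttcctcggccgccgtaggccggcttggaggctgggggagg
ZNF382, chr19:36605063-36605312, + strand: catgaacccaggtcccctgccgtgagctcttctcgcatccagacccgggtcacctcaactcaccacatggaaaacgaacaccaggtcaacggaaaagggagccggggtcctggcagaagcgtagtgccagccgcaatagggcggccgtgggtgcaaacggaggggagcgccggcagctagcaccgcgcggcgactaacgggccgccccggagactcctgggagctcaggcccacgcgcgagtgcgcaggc
ZNF134, chr19:57613992-57614241, + strand: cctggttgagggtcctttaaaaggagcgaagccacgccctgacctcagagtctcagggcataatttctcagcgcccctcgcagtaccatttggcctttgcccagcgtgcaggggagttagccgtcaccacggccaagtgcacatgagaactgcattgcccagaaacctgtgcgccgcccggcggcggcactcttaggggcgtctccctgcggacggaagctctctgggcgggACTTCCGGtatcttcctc

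The genes were expressed at low levels, and some were silent. At least 1 fragment was counted for 230 of the 241, and 11 had none in any library: 8 on 19p (among them ZNF90, ZNF99 and ZNF257) and 3 on 19q. A filter on low counts left 194 to be tested, 54 of 83 on 19p (65.1%) and 140 of 158 on 19q (88.6%), out of 20377 genes tested in all. The 47 genes that were not tested did not pass 1.054 CPM in any library, and 2 of the tested genes passed the filter's level in ΔIDR1b libraries alone. Per kb of exon, the tested genes had a median of 1.59 CPM, against 3.003 over all genes tested, and ranged from 0.0579 to 34.0. The median was 1.7 CPM per kb on 19p and 1.59 on 19q.

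At the top of that range were genes whose proteins lack a KRAB box. ZNF581 (chr19:55635459-55645623) averaged 34.0 CPM per kb over the 12 libraries and ZNF146, a short protein made almost only of zinc fingers, 33.6. They were followed by ZNF428 with 24.5, ZNF358 with 21.5 and ZNF787 with 19.4 CPM per kb. Between 24.89% and 34.13% of the exonic bases of ZNF581, ZNF428 and ZNF358 overlap another gene, and the unstranded counting left fragments from shared bases uncounted. ZNF91, which silences SVA elements, averaged 2.15 CPM per kb, and ZNF93, which silences a group of LINE-1 elements, 0.00327: it had no counts in 10 of 12 libraries.

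ΔIDR1b ARID1A went with higher levels of the zinc finger genes as a group. With the empty vector, all 241 genes together summed to 2429.3 and 2435.2 CPM in the no-ARID1A libraries, to 2628.0 and 2671.8 CPM in the WT libraries and to 3103.9 and 3086.9 CPM in the ΔIDR1b libraries. With EWS-FLI1 the sums were 2529.3 and 2466.9, 2757.1 and 2726.8, and 3280.4 and 3066.6 CPM in the same order. The 4 ΔIDR1b libraries lay above the other 8, and the 4 WT libraries above the 4 without ARID1A. In bulk libraries, more RNA per cell and more cells with the transcript cannot be told apart. The genes' share of all counts was 0.236% to 0.250% without ARID1A, 0.245% to 0.264% with WT and 0.322% to 0.353% with ΔIDR1b.

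**Figure D1:**
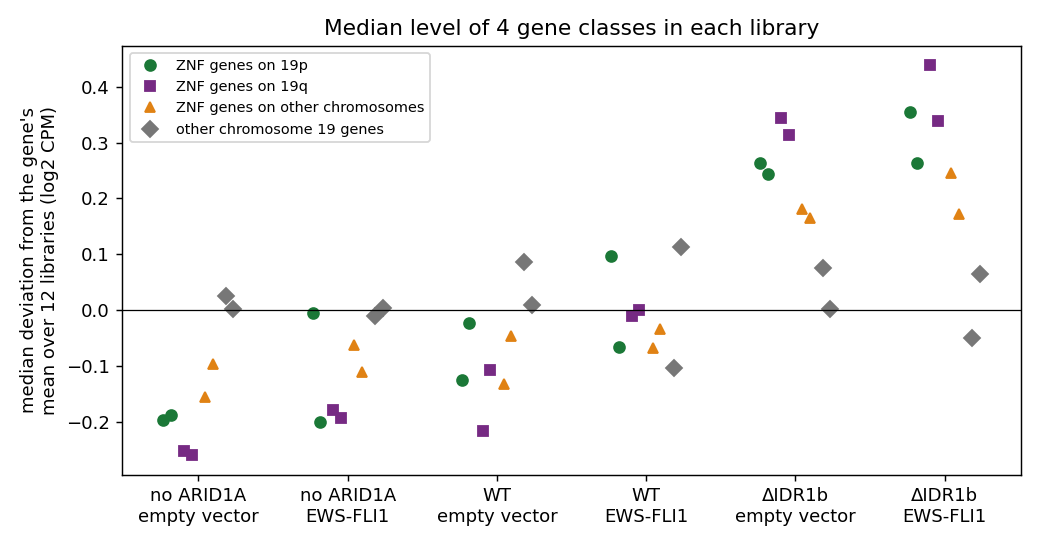
Each point is 1 library; the vertical axis gives the median, over the tested genes of a class, of the deviation of log2 CPM from the gene's own mean over the 12 libraries, and the horizontal axis the 6 groups. The ZNF genes of both arms lie above 0.24 in the 4 ΔIDR1b libraries and below 0.10 in the 8 others, while other chromosome 19 genes show no common shift in the ΔIDR1b libraries.

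In the plot of medians by library the 4 ΔIDR1b libraries were the highest, and the WT and no-ARID1A libraries overlapped: over all 194 genes the median deviation was -0.20 in WT repeat 1 (empty vector), below -0.15 and -0.19 in the no-ARID1A libraries with EWS-FLI1. On 19q the median deviation was -0.25 and -0.26 without ARID1A, -0.22 and -0.11 with WT, and 0.34 and 0.31 with ΔIDR1b, all with the empty vector. On 19p it was -0.20 and -0.19, -0.12 and -0.02, and 0.26 and 0.24. ZNF-number genes on other chromosomes followed with smaller medians, 0.18 and 0.17 in the ΔIDR1b libraries with the empty vector.

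Set against cells without ARID1A, ΔIDR1b cells with the empty vector had 90 of the 194 tested genes higher and 10 lower (edgeR quasi-likelihood test, Benjamini-Hochberg adjusted p under 0.05 over all genes). Over all genes tested, 33.3% were called, 16.4% higher and 16.8% lower. The median log2 fold change was 0.59, a 1.509-fold level, against 0.00 over all genes tested. ZNF-number genes elsewhere had 77 higher and 17 lower of 215, with a median of 0.27, and the other chromosome 19 genes had 191 higher and 188 lower of 1153, with a median of 0.03. Without empty-vector repeat 2 of the no-ARID1A cells the calls fell to 64 (56 higher, 8 lower), and the median stayed between 0.52 and 0.61 under all 22 alternatives. The differences between these classes were not tested. Markers of cell identity differed in the same comparison: COL3A1 was higher by 0.64 (edgeR adjusted p = 0.0042), at 14.9 and 16.8 CPM without ARID1A, at most 22.9 with WT and 22.8 and 26.3 with ΔIDR1b. VIM fell by 0.28 and NEFL by 0.32 (edgeR adjusted p = 0.020 and 0.028). With EWS-FLI1 the changes were 0.88, -0.37 and -0.69, all called by edgeR, and HBB was lower with ΔIDR1b (edgeR adjusted p = 0.0097). Their part in the result was not tested.

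ZNF613, a KRAB gene at chr19:51927147-51948759 on 19q, stood at 0.743 and 0.673 CPM without ARID1A, 1.56 and 0.747 with WT, and 5.26 and 4.65 with ΔIDR1b. The ΔIDR1b libraries were the highest and did not overlap the others. The log2 fold change against no ARID1A was 2.79 (SE 0.45, edgeR adjusted p = 9.4e-06). ZNF256, a KRAB gene known to bind TRIM28 and located at chr19:57940833-57947706, went from 1.34 and 1.05 CPM without ARID1A to 1.79 and 3.06 with WT and 5.56 and 4.22 with ΔIDR1b. Its log2 fold change between the first and the last group was 2.03 (SE 0.39, edgeR adjusted p = 0.00012). The levels were graded, with WT between the others. ZNF154, whose promoter is often methylated in tumours, had 0.818 and 0.299 CPM without ARID1A and 1.76 and 3.22 CPM with ΔIDR1b. Its change of 2.14 (SE 0.64, edgeR adjusted p = 0.0095) was not called without repeat 2 of either group, where the adjusted p reached 0.143.

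Fewer genes fell, and all 10 were among the 64 tested genes with the highest level per kb. ZNF296 (chr19:45071500-45076478), a C2H2 protein without a KRAB box that is known from pluripotent cells, had 25.3 and 24.1 CPM without ARID1A, 19.5 and 20.9 with WT and 9.43 and 8.51 with ΔIDR1b. It fell by 1.46 on the log2 scale (SE 0.19, edgeR adjusted p = 2.7e-07). ZNF333, the single member of its cluster on 19p (chr19:14689801-14733746), had 36.4 and 38.8 CPM without ARID1A and 23.3 and 21.3 with ΔIDR1b, a change of -0.75 (SE 0.14, edgeR adjusted p = 0.00011). ZNF738, a KRAB gene of the pericentromeric 19p cluster, went from 29.7 and 40.2 CPM to 17.7 and 15.8. These 3 genes ran against the direction of the group in libraries that did not overlap. Of the 65 genes with the lowest level per kb 27 were higher and 0 lower, of the 65 in the middle 35 and 0, and of the 64 at the top 28 and 10.

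Measured against WT rather than against no ARID1A, with the empty vector, ΔIDR1b cells had 61 of the 194 genes higher and 6 lower, where 24.5% of all genes were called, 11.1% higher and 13.4% lower. The median was 0.43 (0.01 over all genes tested). These ΔIDR1b libraries also had more ARID1A counts than the WT ones, which cannot be told apart from the deletion. ZNF382, a KRAB repressor often silenced in tumours, had 4.61 and 4.93 CPM with WT and 23.1 and 20.5 CPM with ΔIDR1b, and 5.28 and 8.38 CPM without ARID1A. Its log2 fold change against WT was 2.19 (SE 0.22, edgeR adjusted p = 1.0e-08). ZNF837 was lower with WT (0.893 and 0.896 CPM) than in either other state, at 1.86 and 3.14 CPM without ARID1A and 5.26 and 3.36 with ΔIDR1b. ZNF221 rose by 2.13 (SE 0.54, edgeR adjusted p = 0.0040), from 0.521 and 0.822 CPM, and its call was lost without WT repeat 1 (adjusted p = 0.064). ZNF296, ZNF738 and ZNF581 fell by 1.17, 0.92 and 0.68. The number of calls dropped from 67 to 36 without WT repeat 1 and to 40 without ΔIDR1b repeat 2, both with the empty vector.

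Putting back WT ARID1A, again with the empty vector, moved few of the genes. Compared with no ARID1A, 17 were higher and 7 lower of 194, beside 11.7% of all genes called (6.50% higher and 5.19% lower). The median of 0.10 lay near that of all genes (-0.01). With upper-quartile factors the split was 10 higher and 12 lower, and the all-gene median moved to -0.07. With a separate repeat block for each vector 23 were higher and 14 lower. Leaving out 1 library gave 5 calls without repeat 2 of the no-ARID1A cells and 5 without repeat 1 of the WT cells, 8 without repeat 1 of the no-ARID1A cells and 15 without repeat 2 of the WT cells.

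Among the risers with WT, ZNF350, the KRAB protein that partners BRCA1, had 1.04 and 1.20 CPM without ARID1A and 3.20 and 2.46 with WT. The change was 1.33 (SE 0.39, edgeR adjusted p = 0.022), and ΔIDR1b cells stood at 4.68 and 3.65 CPM. ZNF724 rose by 0.91 (SE 0.26, edgeR adjusted p = 0.020), but 44.71% of its exonic bases overlap another gene. ZNF699 rose by 0.87 (SE 0.25, edgeR adjusted p = 0.017). In the other direction went ZNF837, ZNF471 and ZNF790, at -1.47, -1.44 and -1.15. ZNF471, a KRAB gene often methylated in tumours, had 3.72 and 3.59 CPM without ARID1A, 1.64 and 1.05 with WT and 4.02 and 3.07 with ΔIDR1b. WT libraries alone were low there. Each of these 6 calls was lost when at least 3 of the single libraries of the groups compared were left out in turn, with adjusted p up to 0.323.

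EWS-FLI1 cells repeated the comparison in other libraries. With EWS-FLI1 in all cells, ΔIDR1b against no ARID1A had 81 of the 194 genes higher and 13 lower, where 35.9% of all genes were called (18.1% higher and 17.9% lower). The median of 0.59 again stood against 0.02 over all genes. In both vectors 73 genes were higher, which is 81.1% of the 90 called with the empty vector and 90.1% of the 81 called with EWS-FLI1. Lower in both were 9 genes, 90.0% of the 10 and 69.2% of the 13. None of the 100 genes called with the empty vector (0 of 100) had the opposite sign with EWS-FLI1. These comparisons share no library. Across the 194 genes the log2 fold changes in the 2 vectors had a Pearson r of 0.74, a description across genes, which are not independent replicates. Agreement between the vectors was not computed over all genes tested, so these values do not set the ZNF genes apart from other genes.

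**Figure D2:**
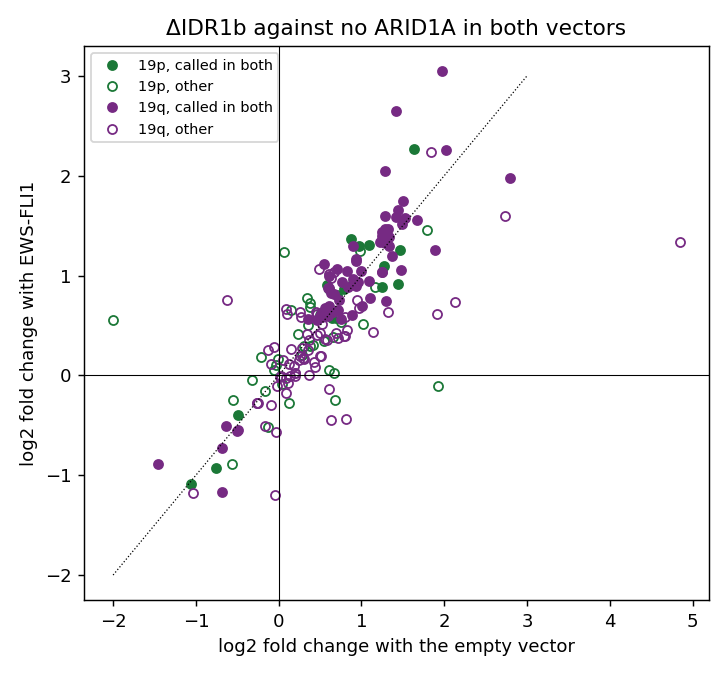
Each point is 1 tested ZNF gene of chromosome 19, with the log2 fold change of ΔIDR1b against no ARID1A with the empty vector on the horizontal axis and with EWS-FLI1 on the vertical axis; filled points were called in both and the dotted line marks equality. Of the 194 genes, 148 lie in the upper right and 23 in the lower left part, with the same sign in both.

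ZNF221 had the largest rise with EWS-FLI1, from 0.511 and 0.346 CPM without ARID1A to 3.89 and 3.34 with ΔIDR1b, a log2 fold change of 3.05 (SE 0.59, edgeR adjusted p = 0.00011). ZNF416 followed with 1.19 and 0.432 CPM against 4.88 and 5.42 (2.65, SE 0.46, edgeR adjusted p = 3.0e-05). ZNF506 on 19p had 0.682 and 0.864 CPM against 3.61 and 3.89 (2.27, SE 0.45, edgeR adjusted p = 0.00015). For all 3 the WT libraries lay between, at 0.986 to 3.26 CPM. Among the fallers, ZNF160, a KRAB gene, had 38.5 and 42.0 CPM without ARID1A and 17.0 and 18.8 with ΔIDR1b, a change of -1.17 (SE 0.15, edgeR adjusted p = 1.6e-07). ZNF738 stood at -1.08 (SE 0.17, edgeR adjusted p = 5.6e-06). ZNF471 was at -1.20 (SE 0.37, edgeR adjusted p = 0.012) here and at -0.04 (edgeR adjusted p = 0.94) with the empty vector; it was no longer called without repeat 1 of either group, where the adjusted p reached 0.130.

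With EWS-FLI1 the step from WT to ΔIDR1b had 47 genes higher and 5 lower, beside 18.6% of all genes called (8.48% higher and 10.1% lower), and a median of 0.42. These ΔIDR1b cells also had more ARID1A counts and fewer FLI1 counts than the WT cells. Those differences cannot be told apart from the deletion. ZNF544, ZNF497 and ZNF563 rose by 2.04, 1.90 and 1.78. ZNF497 had 0.452 and 4.17 CPM in the WT libraries, which differ widely, and DESeq2 did not call it (adjusted p = 0.062). ZNF333 fell by 0.82 (SE 0.15, edgeR adjusted p = 0.00016), from 33.1 and 29.8 CPM to 16.3 and 19.2. ZNF581 and ZNF428 fell by 0.68 and 0.54. Without ΔIDR1b repeat 1 of the EWS-FLI1 cells 25 genes were called, and in a fit of only the groups compared 30. ZNF544, ZNF563 and ZNF428 each lost their call without 1 ΔIDR1b library and without 1 WT library, with adjusted p up to 0.389.

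WT against no ARID1A with EWS-FLI1 gave 26 higher and 9 lower of 194, and 18.1% of all genes were called (9.72% higher and 8.36% lower). The median was 0.14 (-0.02 over all genes). It was 0.07 with GC and length trends removed, 0.06 with a repeat block per vector as well, and 0.07 without WT repeat 1. ZNF627 rose by 0.95 (SE 0.23, edgeR adjusted p = 0.0038), from 6.22 and 5.88 CPM to 11.3 and 12.1. ZNF416 and ZNF506 rose by 1.69 and 1.52. ZNF331, an imprinted KRAB gene, had 2.64 and 1.82 CPM without ARID1A and 0.527 and 0 CPM with WT, where 3 counts are worth 0.22 CPM. ZNF471 fell by 1.43 (SE 0.38, edgeR adjusted p = 0.0078), as it did with the empty vector. ZNF497 fell by 1.26, from 4.86 and 6.22 CPM to 0.452 and 4.17 CPM, and DESeq2 did not call it. The count of 35 dropped to 13 without repeat 2 and 17 without repeat 1 of the no-ARID1A EWS-FLI1 cells. Of the 6 genes named, all but ZNF627 lost their calls in at least 2 of the alternatives.

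**Figure D3:**
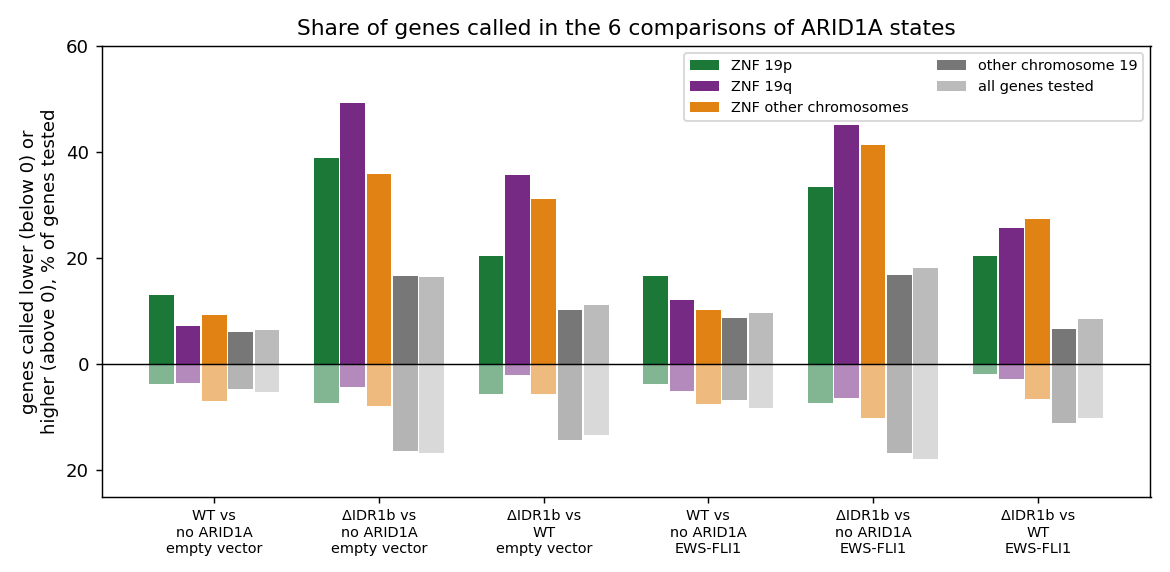
Bars above 0 give the percent of tested genes called higher and bars below 0 the percent called lower (edgeR adjusted p under 0.05) in 6 comparisons of ARID1A states, for 5 gene classes. The bars above 0 are taller for the 3 ZNF classes than for all genes tested in all 6 comparisons, and in the 4 that involve ΔIDR1b their bars below 0 are shorter (4.29% on 19q and 7.41% on 19p against 16.8% for ΔIDR1b against no ARID1A, empty vector); the tallest bar is 49.29% for ZNF genes on 19q, ΔIDR1b against no ARID1A with the empty vector.

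Both arms moved the same way, with larger medians on 19q. For ΔIDR1b against no ARID1A with the empty vector, 21 of 54 genes on 19p were higher and 4 lower (median 0.50), and 69 of 140 on 19q were higher and 6 lower (median 0.61). With EWS-FLI1 the counts were 18 and 4 of 54 (median 0.52) and 63 and 9 of 140 (median 0.61). Against WT with the empty vector the medians were 0.27 on 19p and 0.51 on 19q, and with EWS-FLI1 0.37 and 0.43. The 19p median of 0.27 was 0.44 without WT repeat 2 (empty vector), and that of 0.37 was 0.21 without ΔIDR1b repeat 1 and 0.24 without WT repeat 2 (EWS-FLI1). The difference between the arms was not tested. Without filtering on low counts the 19p median for ΔIDR1b against no ARID1A was 0.38 in empty-vector cells and 0.34 in EWS-FLI1 cells. The non-ZNF genes of the arms had medians of -0.01 on 19p and 0.06 on 19q in the first of these comparisons.

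**Figure D4:**
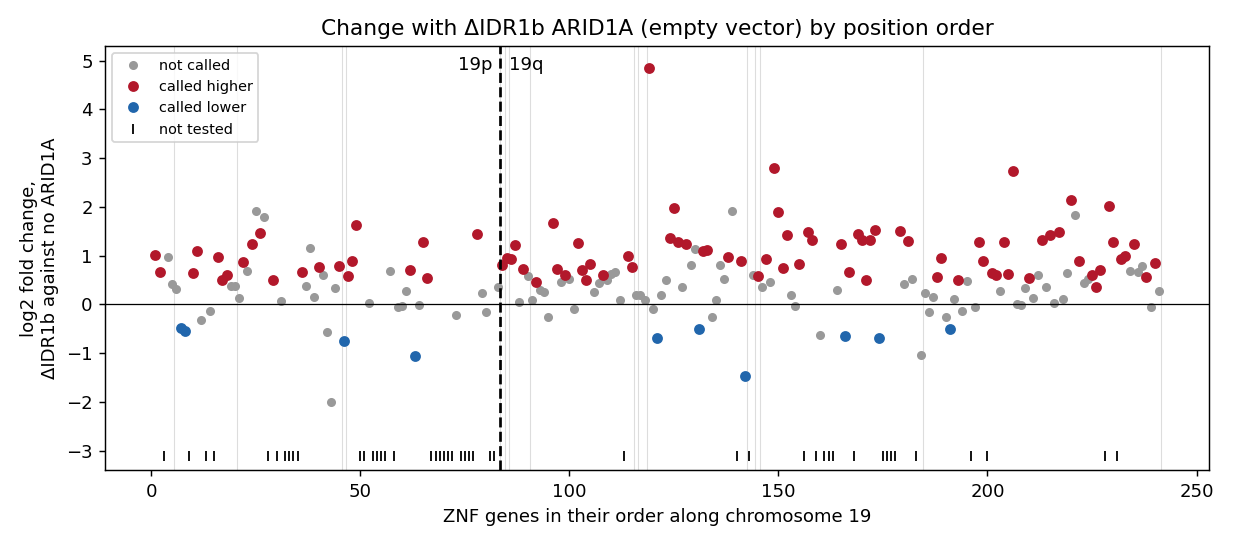
The 241 ZNF genes stand in their order along chromosome 19 on the horizontal axis, with the log2 fold change of ΔIDR1b against no ARID1A (empty vector) on the vertical axis; grey vertical lines separate the 16 clusters, the dashed line the arms, and ticks at the bottom mark the 47 genes not tested. Genes called higher (90) occur along both arms, and the last cluster of 19p had 18 of its 37 genes tested.

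Genes were put in 1 cluster when neighbouring starts lay within 1 Mb, which gave 16 clusters, 5 on 19p and 11 on 19q. The largest, at chr19:55476617-58481230, holds 57 genes, of which 26 of 53 tested were higher and 1 lower with ΔIDR1b (empty vector, median 0.60). The cluster at chr19:51571283-53580269 had 17 higher and 2 lower of 28 tested (median 0.79), and 17 and 3 with EWS-FLI1 (median 0.79). The cluster at chr19:43525497-45076478 had 9 higher and 3 lower of 23 (median 0.81). That at chr19:36182276-37817300 had 11 higher and 0 lower of 24 (median 0.51). On 19p, the pericentromeric cluster at chr19:19668796-24129968 had 18 of its 37 genes tested, 7 higher and 1 lower (median 0.32). The cluster at chr19:11483427-12640098 had 7 higher and 0 lower of 19 (median 0.66). All clusters with at least 4 tested genes had a median above 0, in both vectors.

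At least 1 gene was called in 13 of the 16 clusters (ΔIDR1b against no ARID1A, empty vector). With 33.3% of all genes tested called, a cluster of several genes would often hold 1. The number of clusters therefore does not set the ZNF genes apart. The leading gene of a cluster is the one with the largest change among its called genes, so it passes the threshold by choice. ZNF554 at the tip of 19p went from 5.72 and 6.58 CPM to 13.2 and 11.8 (1.02, SE 0.23, edgeR adjusted p = 0.00058). ZNF699 changed by 1.09 and ZNF440 by 1.46 (SE 0.22, edgeR adjusted p = 4.0e-06), and both were graded, with WT between the other states. ZNF506 led the pericentromeric cluster with 1.63 (SE 0.41, edgeR adjusted p = 0.0022). On 19q, ZNF536, a neuronal regulator without a KRAB box, rose by 0.80 and ZNF507 by 0.96 (SE 0.14, edgeR adjusted p = 1.8e-06), from 33.5 and 29.9 to 59.6 and 63.6 CPM. ZNF181 rose by 1.23, and ZNF473, which takes part in histone pre-mRNA 3′ end processing, by 0.59. The ZNF473 call was lost without repeat 2 of the no-ARID1A cells (adjusted p = 0.054). ZNF547 had 0.0743 and 0.150 CPM without ARID1A and 0.804 and 0.786 with ΔIDR1b; its adjusted p of 0.047 in edgeR passed 0.05 in 12 alternatives. ZNF575, with the empty vector, was nearly silent without ARID1A, at 0 and 0.0748 CPM (1 count), and had 1.24 and 1.43 CPM with ΔIDR1b, so no fold is given. With EWS-FLI1 it had 0.170 and 0.346 CPM without ARID1A and 0.283 and 1.04 CPM with ΔIDR1b, which overlap.

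**Figure D5:**
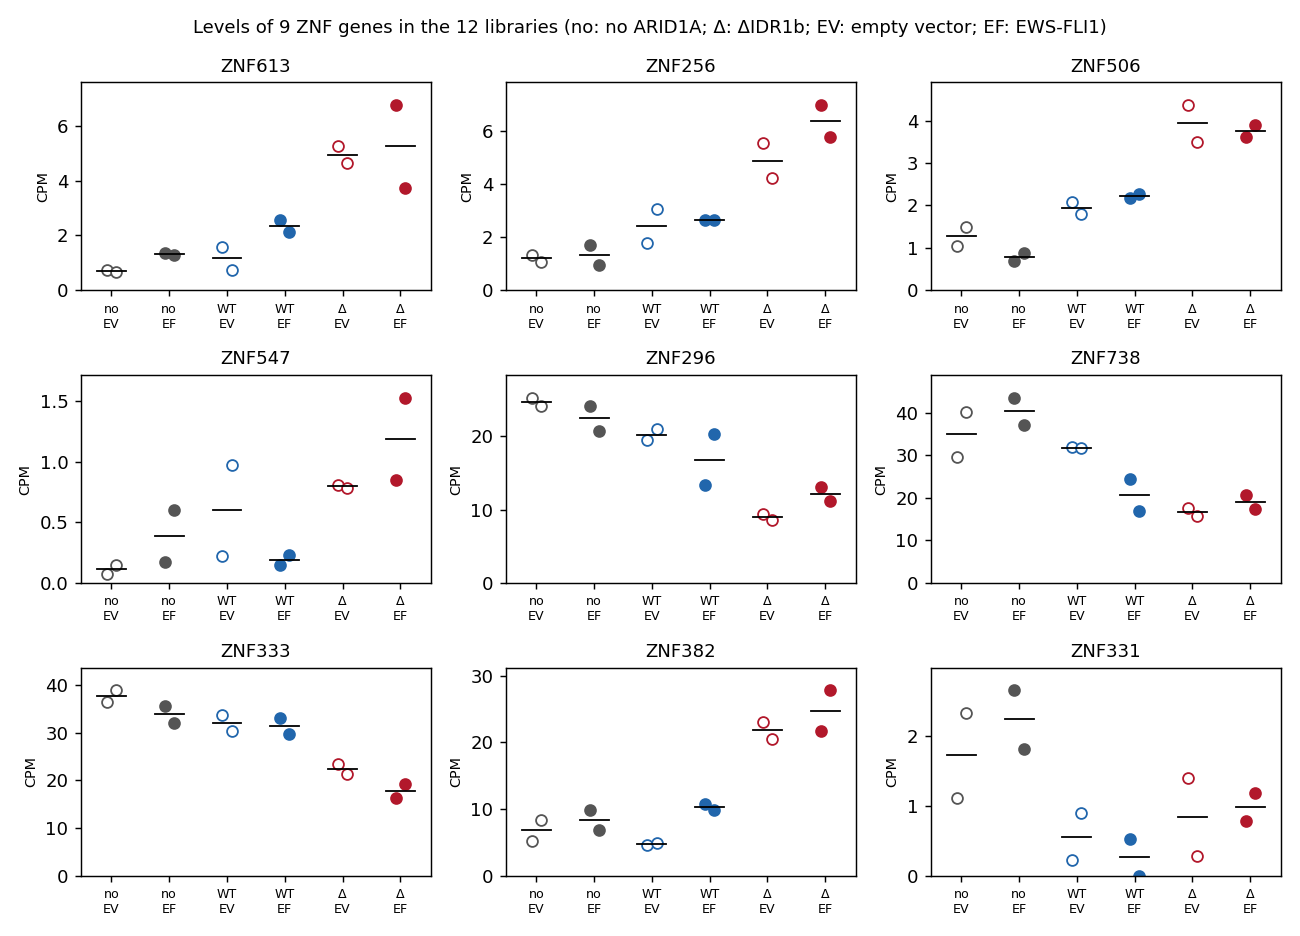
CPM of 9 ZNF genes in the 12 libraries, with 1 point per library, a bar at the mean of each group of 2, and open points for the empty vector; the linear axes start at 0. ZNF613, ZNF256, ZNF506 and ZNF382 are highest and ZNF333 and ZNF296 lowest in the 4 ΔIDR1b libraries. ZNF547 overlaps between states, and ZNF331 has its lowest mean with WT and EWS-FLI1, where single libraries overlap other groups.

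Library by library, 62 of the 194 genes (32.0%) had all 4 ΔIDR1b libraries above all 8 others, where 10.6% of all genes tested did. Of these 15 were on 19p and 47 on 19q. The 4 no-ARID1A libraries were below all others for 30 genes (15.5%, against 9.48% of all genes). The 4 ΔIDR1b libraries were below all others for 4 genes (2.1%, against 11.6%). ZNF genes with known functions spread over these patterns. ZNF274, the KRAB and SCAN protein that brings SETDB1 to the 3′ ends of ZNF genes, had 27.4 and 25.1 CPM without ARID1A, 20.8 and 19.1 with WT and 55.3 and 49.9 with ΔIDR1b (empty vector). It rose by 1.00 against no ARID1A (SE 0.15, edgeR adjusted p = 3.6e-06) and by 1.40 against WT (SE 0.15, edgeR adjusted p = 5.1e-08). With EWS-FLI1 it stood at 23.7 and 32.9, 19.6 and 25.4, and 47.9 and 43.9 CPM. Its 4 ΔIDR1b libraries lay above the other 8.

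Other genes with described roles rose, fell or were not called. ZNF304, a KRAB repressor known to recruit silencing factors, rose by 0.63 (edgeR adjusted p = 0.020), and ZNF420, a KRAB inhibitor of p53 activity, by 0.50 (edgeR adjusted p = 0.031), both against no ARID1A with the empty vector. ZNF224, a KRAB repressor of the aldolase A gene, fell by 0.51 (edgeR adjusted p = 0.031), and 42.43% of its exonic bases overlap another gene. These 3 calls were lost when any of 3 single libraries was left out (either of the no-ARID1A libraries and ΔIDR1b repeat 2 for ZNF420 and ZNF224, repeat 1 for ZNF304), with adjusted p up to 0.344. ZNF350 rose by 1.89 (SE 0.38, edgeR adjusted p = 0.00019). ZNF91 was at 0.23 and ZNF649 at 0.46, with edgeR adjusted p of 0.40 and 0.21, and neither was called. Of the genes with the highest levels, ZNF146 rose by 0.46 (edgeR adjusted p = 0.0014), and ZNF581, ZNF428 and ZNF358 fell by 0.50, 0.68 and 0.49. ZNF787 was at 0.11 and was not called. The calls of ZNF146, ZNF581 and ZNF358 were lost without ΔIDR1b repeat 2 (adjusted p = 0.057, 0.055 and 0.164).

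A further list held 22 genes, all tested, chosen for the silencing machinery around KRAB proteins. For ΔIDR1b against no ARID1A, 9 were higher and 2 lower in empty-vector cells (median 0.20), and 12 and 2 in EWS-FLI1 cells (median 0.36). Over all genes 33.3% (16.4% higher, 16.8% lower) and 35.9% (18.1% higher, 17.9% lower) were called. In empty-vector cells, TRIM28, the KRAB scaffold, had 495 and 468 CPM without ARID1A, 646 and 562 with WT and 682 and 653 with ΔIDR1b. Its change with ΔIDR1b against no ARID1A was 0.47 (SE 0.10, edgeR adjusted p = 0.00045). TASOR, a subunit of the HUSH silencing complex, had 67.3 and 73.1, 50.1 and 48.0, and 104 and 108 CPM in the same order. It rose by 0.59 against no ARID1A (edgeR adjusted p = 5.9e-05) and by 1.11 against WT (edgeR adjusted p = 5.0e-09). MORC2, a HUSH effector, went from 56.9 and 49.7 CPM without ARID1A to 89.8 and 89.8 with ΔIDR1b, a rise of 0.75. MPHOSPH8 and PPHLN1, the other core HUSH subunits, were at 0.08 and 0.19 with the empty vector and were not called (edgeR adjusted p = 0.69 and 0.25). With EWS-FLI1 they rose by 0.41 and 0.31 and were called (edgeR adjusted p = 0.023 and 0.044). With the empty vector SETDB1 was at -0.18 (edgeR adjusted p = 0.24), and ATF7IP, its binding partner, rose by 0.53. The HP1 genes split there, with CBX5 up by 0.26 and CBX1 and CBX3 at -0.36 and -0.52, all called by edgeR. With EWS-FLI1 CBX5, CBX1 and CBX3 were at 0.43, -0.13 and -0.40, and CBX1 was not called (edgeR adjusted p = 0.33).

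Base composition is a property the genes share: the median GC content of their transcripts was 42.2%, against 48.6% over all genes tested. Within the group, the numbers called higher with ΔIDR1b (empty vector, against no ARID1A) were 30 of the 65 genes lowest in GC content, 31 of the 65 in the middle and 29 of the 64 highest. Taking out smooth trends with GC content and length over all genes left 89 higher and 11 lower (median 0.52) in empty-vector cells, and 80 and 14 (median 0.50) in EWS-FLI1 cells. For WT against no ARID1A (empty vector) it gave 20 higher and 15 lower. At least 10% of exonic bases overlap another gene in 61 of the 241, and 9 share at least 10% of their stretches of 100 bases with another ZNF gene, so fragments in those parts were not counted or are uncertain.

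Few of these genes were called with EWS-FLI1, and the same held for all genes tested. Against the empty vector, edgeR called 0 of 194 without ARID1A, 1 higher with WT and 0 with ΔIDR1b, where 0.0442%, 0.221% (0.152% higher) and 0.172% of all genes tested were called. Unadjusted p-values under 0.05 were found for 6, 16 and 15 of the 194 genes. DESeq2 called 0, 1 and 0. Averaged over the 3 ARID1A states, 2 genes were higher and 0 lower (0.466% of all genes called, 0.294% higher and 0.172% lower). The medians were 0.08, 0.10 and 0.09 in the 3 states and 0.10 in the average, against 0.00 over all genes in each. Over the alternatives they ranged from 0.04 to 0.16 without ARID1A, from 0.05 (without WT empty-vector repeat 1) to 0.19 (without its repeat 2) with WT, from 0.03 (without ΔIDR1b EWS-FLI1 repeat 1) to 0.14 with ΔIDR1b and from 0.06 to 0.18 for the average. FLI1 counts in ΔIDR1b cells exceeded those in cells without ARID1A by 0.11 (edgeR adjusted p = 0.37). FLI1 counts in WT cells exceeded those in cells without ARID1A by 1.02 (SE 0.09, edgeR adjusted p = 7.9e-10). The WT comparison was thus made at another level of the fusion, and its part in the counts was not tested.

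The genes in question were ZNF382 and ZNF134. ZNF382 (chr19:36604817-36634114) had 4.61 and 4.93 CPM with WT and the empty vector and 10.8 and 9.86 with WT and EWS-FLI1, a change of 1.11 (SE 0.23, edgeR adjusted p = 0.022). Without ARID1A it went from 5.28 and 8.38 to 9.89 and 6.91 CPM, and with ΔIDR1b from 23.1 and 20.5 to 21.7 and 27.8, and in both the libraries overlapped. On average it rose by 0.53 (SE 0.13, edgeR adjusted p = 0.046). ZNF134 (chr19:57614233-57624724), a zinc finger gene of the terminal cluster, had 6.02 and 4.56 against 7.59 and 9.33 CPM without ARID1A, 9.37 and 8.22 against 15.1 and 11.5 with WT, and 14.2 and 15.4 against 17.2 and 18.1 with ΔIDR1b. EWS-FLI1 libraries were the higher ones in each state, and the average rise was 0.51 (SE 0.12, edgeR adjusted p = 0.041). The calls were fragile: ZNF134 lost its average call in 11 alternatives, ZNF382 in 9, and the WT call of ZNF382 was lost without either WT empty-vector library or in a fit of only the groups compared (adjusted p up to 0.391). With a separate repeat block for each vector, 9 genes (3 higher, 6 lower) were called for the average, 3 for WT and 3 for ΔIDR1b.

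Whether the ARID1A state changed the effect of EWS-FLI1 on these genes was tested by the interaction terms. No gene of the 194 passed in any of the 3 pairs of states: edgeR called 0, with 6 unadjusted p-values under 0.05 for WT against no ARID1A, 10 for ΔIDR1b against no ARID1A and 11 for ΔIDR1b against WT. DESeq2 called 0, 0 and 0. Over all genes tested 0.0245%, 0.0196% and 0.00% were called. With the block within each vector, 1 gene was called lower for WT against no ARID1A.

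Genes with and without the promoter letters shown above are given side by side, and their differences were not tested. With CCGGAAGT in the promoter, 38 tested genes had a median response to EWS-FLI1 (average of the 3 states) of 0.105, and 136 without it 0.104. For ΔIDR1b against no ARID1A with the empty vector, 20 of the 38 were higher and 1 lower (median 0.607), and 61 of the 136 were higher and 8 lower (median 0.573). On 19q alone the medians were 0.608 for 37 genes with the letters and 0.593 for 86 without. With EWS-FLI1, 19 of the 38 and 51 of the 136 were higher. For WT against no ARID1A the medians with and without the letters were 0.212 and 0.075 (empty vector) and 0.276 and 0.097 (EWS-FLI1). For ΔIDR1b against WT they were 0.276 and 0.453 (empty vector). A match is a stretch of letters and not a measured binding site.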

How the data were processed

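PolyA RNA-seq of 12 libraries in 6 groups was used. The authors deposited 1 table of gene counts per library, made with featureCounts v2.0.1 on paired reads and GENCODE 41 exons (GRCh38.p13), summed by gene name, without strand and without multi-mapping or multi-overlapping fragments, per the file headers. The submitters' processing notes name STAR, SAMtools, featureCounts and edgeR. The aligner's version and the read length are not given in the sources used here.

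The deposited counts were scaled by TMM, and genes passing filterByExpr (minimum count 10, minimum total 15) were tested with edgeR 4.0.16's quasi-likelihood test, with 1 mean per group over all 12 libraries and Benjamini-Hochberg adjustment over the 20377 genes tested. Genes with an adjusted p under 0.05 were called. CPM values use the TMM-scaled library sizes. DESeq2 1.42.0 was an alternative. The filter kept between 99.79% and 99.87% of counts. The procedure was tested on simulated data of 19526 genes. In the ΔIDR1b groups 200 genes with a mean over 1 CPM were changed, up and down in equal numbers. The simulated repeats were not correlated between groups. For ΔIDR1b against no ARID1A with the empty vector, the procedure recovered 73% of genes changed by 1 on the log2 scale. It recovered 88% of those changed by 2, with 9 false calls. Many more genes were called in the data, so these figures may not carry over.

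The differences between repeats 1 and 2 correlated between groups of the same vector (Pearson r from 0.104 to 0.412 over 10695 genes with a mean of at least 10 CPM) and had negative correlations across vectors (from -0.00785 to -0.223), so the numbers were taken to pair samples within a vector only. The submitters' labels do not say what a repeat number marks, and the fit without a block was the main one.

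Named genes were, for each comparison of ARID1A states, up to 3 in each direction with the largest change among called genes of at least 1 CPM whose libraries did not overlap, those called with EWS-FLI1, the 5 highest per kb, 10 described in the literature and the leading gene of each cluster. ZNF568, ZNF222, ZNF805 and ZNF606 are shown for their sequence, and 3 silent genes are named as examples after their values were seen. The genes and lists were chosen with earlier results of these data known. Promoter sequences are RefSeq's (GRCh38.p14), and GC content comes from GENCODE transcripts, with a value for 96.8% of tested genes. Alternatives covered scaling, filtering, tool, GC and length trends, the repeat block, only the groups compared, and each library left out in turn.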

Additional observations from a re-analysis of the deposited data

How the results depend on the processing

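Low levels limit the results: 47 of 241 genes were not tested, and 3 counts were worth 0.208 to 0.256 CPM. The 2 libraries a group leave little to estimate the spread from. Keeping only genes with a mean of at least 1 CPM, a choice made after seeing the data, left 98 and 94 calls for ΔIDR1b against no ARID1A (main 100 and 94). This setting drops genes from the main fit without a new fit or adjustment. Its values for the genes kept repeat the main ones and are no separate check. Of 1382 values for named genes under the alternatives, 1279 kept direction and side of the threshold, 102 lost the call and 1 changed sign. Many could hardly have changed, since a left-out library often lay outside the groups compared. Genes not called in the main fit also count as kept when they stay uncalled. The total therefore says little of how firm a call is. The value that changed sign was that of ZNF787, at 0.107 for ΔIDR1b against no ARID1A (empty vector). It was at -0.11 without ΔIDR1b repeat 1 and at 0.30 without ΔIDR1b repeat 2, and the cause was not tested.

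In numbers of genes called, the repeat block within each vector gave 37 for WT against no ARID1A with the empty vector (24 without it), 9 for the average EWS-FLI1 effect (2 without it), 3 for EWS-FLI1 with ΔIDR1b (0 without it), 3 for EWS-FLI1 with WT (1 without it) and 1 for the WT against no-ARID1A interaction (0 without it). With GC and length trends removed as well, these were 39, 1, 1, 1 and 1. A repeat block across both vectors gave 1 for the average effect. The block moved no other total over the 194 genes by over 1.5 times; for ΔIDR1b against WT with EWS-FLI1 it moved the lower calls from 5 to 9 and those on 19p from 11 higher and 1 lower to 17 and 2. Removing the trends alone gave 2 for EWS-FLI1 with WT. A fit of only the groups compared gave 16 for WT against no ARID1A in EWS-FLI1 cells, 30 for ΔIDR1b against WT with EWS-FLI1 and 0 for EWS-FLI1 with WT; for the average it was not run, since that contrast holds all 6 groups. The cause of these shifts was not tested.

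Leaving out 1 library at a time gave 64 to 104 calls for ΔIDR1b against no ARID1A with the empty vector and 67 to 104 with EWS-FLI1, 36 to 77 and 25 to 56 for ΔIDR1b against WT, and 5 to 36 and 13 to 36 for WT against no ARID1A. For EWS-FLI1 it gave 0 to 4 with WT and for the average, 0 without ARID1A and with ΔIDR1b, and 0 to 1 for the interactions of WT with no ARID1A and with ΔIDR1b, and 0 for the third. A group left with 1 library was assumed to vary like the others.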
